A study of Mus musculus with 18 samples.

Results

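The 6 genes described here are the AP-1 transcription factor genes *Fos*, *Fosb*, *Fosl2*, *Jun*, *Junb* and *Jund*, taken by name from a table of 12012 genes, and all 6 have values in every library analysed. They were picked by name, but with earlier results of the KO_CSPG against WT_CSPG comparison in view, so their differences between these groups are given as a description without a p-value, and the number called is printed only to stand beside that over all genes. Hippocampal cells of E18.5 mouse embryos were plated on coverslips coated with chondroitin sulphate proteoglycans (CSPGs), matrix molecules with sulphated sugar chains, and poly-A RNA was sequenced early after plating (day 3 in the main text of the study and day 2 in its appendix). WT_CSPG cultures carried wild-type *Fibcd1*, the gene of a transmembrane receptor that binds these sugar chains, and KO_CSPG cultures carried the germline deletion allele *Fibcd1tm1Lex* (labelled fibcd1 -/-) on a C57BL/6J background. Both groups therefore share the CSPG stimulation, and the question put to them is how AP-1 gene expression differed with genotype on this coating. The series labels 18 libraries, and the values analysed here come from 4 WT_CSPG and 4 KO_CSPG cultures, replicates A to D of each. The 5 WT, the 4 KO and the remaining WT_CSPG library were not analysed here. Whether a difference between the 2 groups depends on the coating was therefore not tested. The study itself went on to compare coated with uncoated cultures within each genotype. Its reason was that differences between its uncoated KO and WT cultures may have reflected numbers of glia. The study calls the replicates biological, but litter, sex and day of preparation are not given for single cultures.

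AP-1 is a dimer of basic leucine zipper proteins. Fos family proteins do not pair with each other and need a Jun partner, whereas Jun family proteins can also pair among themselves, so the supply of each family sets which dimers can form. *Fos*, *Fosb* and *Junb* are early-response genes, switched on within minutes by synaptic activity, growth factors or stress through transcription factors that are already present, while *Jund* is typically expressed at a steady level. In the hippocampus, *Fos* is widely used as a marker of recently active neurons, and *Fosb* also gives a truncated protein, ΔFOSB, that lasts for days after repeated activity. Read counts per gene do not tell these *Fosb* products apart.

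The stretches in front of *Fos*, *Fosb* and *Junb* are shown because activity-driven factors such as CREB and SRF can act at early-response promoters. That of *Fosl2* is shown because *Fosb* and *Fosl2* had the largest differences. Binding was not measured here, and whether these stretches bear on any difference was not tested. Each sequence holds the 250 bases before the RefSeq start, on build GRCm38.p6 and on the strand of the gene, and capitals mark matches to TGACG, the core that CREB and ATF proteins recognise, or to TATAAA, the letters of the box that TBP binds. The *Fos* stretch is chr12:85473640-85473889 (plus strand), that of *Fosb* is chr7:19310046-19310295 (minus strand), that of *Junb* is chr8:84978749-84978998 (minus strand) and that of *Fosl2* is chr5:32136222-32136471 (plus strand).
Fos: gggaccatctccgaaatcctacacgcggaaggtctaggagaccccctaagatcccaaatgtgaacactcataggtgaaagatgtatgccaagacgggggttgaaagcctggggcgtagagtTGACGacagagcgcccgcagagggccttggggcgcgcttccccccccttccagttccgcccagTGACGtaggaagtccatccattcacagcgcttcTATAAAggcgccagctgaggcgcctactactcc
Fosb: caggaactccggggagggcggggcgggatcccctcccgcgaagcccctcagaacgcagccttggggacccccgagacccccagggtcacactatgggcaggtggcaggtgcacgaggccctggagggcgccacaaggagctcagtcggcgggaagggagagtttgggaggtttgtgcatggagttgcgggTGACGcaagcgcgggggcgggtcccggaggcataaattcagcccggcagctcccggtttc
Junb: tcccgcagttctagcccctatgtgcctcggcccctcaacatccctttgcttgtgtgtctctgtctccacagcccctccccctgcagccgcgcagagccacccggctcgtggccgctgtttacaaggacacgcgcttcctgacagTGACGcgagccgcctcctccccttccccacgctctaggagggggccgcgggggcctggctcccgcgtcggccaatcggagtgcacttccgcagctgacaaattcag
Fosl2: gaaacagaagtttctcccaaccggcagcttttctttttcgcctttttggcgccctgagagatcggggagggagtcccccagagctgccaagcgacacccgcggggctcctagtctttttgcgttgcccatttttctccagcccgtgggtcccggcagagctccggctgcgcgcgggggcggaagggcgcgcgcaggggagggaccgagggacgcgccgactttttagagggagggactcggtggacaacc

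RefSeq windows from 250 bases before to 50 bases after the start were found for all 6 genes, and 5 motifs were searched on both strands. TGACG was found in *Fos*, *Fosb* and *Junb*, and in 21.02% of all 27025 promoters. In *Fos* it began 129 and 66 bases before the start, in *Fosb* 60 bases before it and in *Junb* 106 bases before it. TATAAA was found in *Fos*, beginning 33 bases before the start, and in *Junb*, beginning at the RefSeq start base and so beyond the stretch shown, against 14.2% of all promoters. The RefSeq start of *Junb* lies 30 bases before the gene start of the deposited table, so its TATAAA begins 30 bases before that gene start. The AP-1 site TGACTCA (5.17% of all promoters), the CRE palindrome TGACGTCA (1.88%), which contains TGACG, and the CArG box that SRF binds (1.57%) were not matched in any of the 6 windows. Sites more than 250 bases before the start lay outside the search, so a missing match does not mean that a gene lacks the motif. The RefSeq start of *Jund* lies 1210 bases before the gene start of the deposited table and that of *Fosl2* 671 bases after it, so these windows need not be the promoters used in these cultures.

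Reads over the genes of the table numbered between 10099564 and 11174615 in WT_CSPG and between 10541445 and 11647202 in KO_CSPG. Values are normalized counts, meaning reads per gene after scaling each library by its size factor. *Fibcd1* itself had between 54.3 and 182 normalized counts in WT_CSPG and between 0.932 and 7.16 in KO_CSPG, as the labels have it (log2 fold change -4.48, SE 0.58; limma adjusted p = 0.00599). Neuron markers were present in every library (10 of 10 listed genes, summing to between 77816 and 82686 normalized counts in WT_CSPG and between 77801 and 80407 in KO_CSPG). Of the astrocyte markers, 8 of 10 listed were analysed, summing to between 33056 and 39795 in WT_CSPG and between 37295 and 41792 in KO_CSPG. Among them *Gfap* had means of 19961 in WT_CSPG and 21181 in KO_CSPG, so the cultures labelled as neurons also held glia. In bulk RNA, fewer cells that use a gene and less of its RNA per cell cannot be told apart.

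*Fosb* showed the largest difference of the 6 genes. On GRCm38 it spans chromosome 7 from 19302696 to 19310051 (minus strand), with 4 exons in its longest annotated transcript. WT_CSPG replicates A to D had 98.2, 81.2, 109 and 88.7 normalized counts of *Fosb*. KO_CSPG replicates A to D had 25.2, 27.0, 29.6 and 21.8. Every KO_CSPG library lay far below every WT_CSPG library, and the groups did not overlap. The means were 94.2 ± 11.9 (SD, n = 4) in WT_CSPG and 25.9 ± 3.30 (SD, n = 4) in KO_CSPG, a 3.63-fold ratio, and the log2 fold change was -1.82 with a standard error (SE) of 0.15. Among all 12012 genes, 3 had a more negative log2 fold change. Genes with a mean under 40.7 over the 8 libraries are not among these, and the KO_CSPG mean of *Fosb* is itself below that value. *Fosb* is also the gene with the fewest reads of the 6, between 75 and 112 in WT_CSPG and between 23 and 29 in KO_CSPG. The exact 95% Poisson interval of the lowest WT_CSPG library (75 reads, from 59.0 to 94.0) lay above that of the highest KO_CSPG libraries (29 reads, from 19.4 to 41.6), and these intervals cover counting error only. Within each group the libraries differed by an SD of 0.18 on the log2 scale, against 0.15 in WT_CSPG and 0.28 in KO_CSPG that counting alone gives at these depths.

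*Fosl2*, which encodes FRA-2, a Fos protein without the strong activation domain of FOS, had the next largest difference and the highest counts. It lies on the plus strand of chromosome 5 from 32135801 to 32157842, with 4 exons in its longest transcript. Its normalized counts were 2470, 2201, 2430 and 2442 in WT_CSPG replicates A to D. In KO_CSPG replicates A to D they were 1580, 1749, 1791 and 1621. The groups again did not overlap, with the lowest WT_CSPG library (B) above the highest KO_CSPG library (C). Means were 2386 ± 125 (SD, n = 4) and 1685 ± 101 (SD, n = 4), a level 29.4% lower in KO_CSPG, at -0.50 on the log2 scale (SE 0.04). Among all 12012 genes, 35 had a more negative log2 fold change, and of the 1195 genes with at least its mean level, 0 had.

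*Fos*, the founding member of the family and the classical marker of activated neurons, differed less and its libraries overlapped. It lies on the plus strand of chromosome 12 from 85473890 to 85477273 and its longest transcript has 4 exons. WT_CSPG replicates A to D had 347, 246, 335 and 302 normalized counts of *Fos*. KO_CSPG replicates A to D had 277, 249, 285 and 233. The WT_CSPG replicate B lay among the KO_CSPG libraries, while the other WT_CSPG libraries lay above all of them. The means were 307 ± 45.2 (SD, n = 4) and 261 ± 24.3 (SD, n = 4), and the log2 fold change was -0.23 (SE 0.10).

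The Jun genes are single-exon genes in their longest transcripts, and all 3 overlapped between the groups. *Jun*, which encodes the strongest activator of the family, lies on the minus strand of chromosome 4 from 95049034 to 95052222. Its normalized counts were 1327, 1270.3, 1238 and 1310 in WT_CSPG replicates A to D and 1198, 1265, 1334 and 1215 in KO_CSPG replicates A to D. The highest and 2 of the lowest of these values were in KO_CSPG, and the log2 fold change of -0.0385 was smaller in size than its standard error of 0.0404.

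*Junb*, an early-response gene whose protein can restrain JUN, lies on the minus strand of chromosome 8 from 84974484 to 84978718. It had 178, 157, 145 and 124 normalized counts in WT_CSPG replicates A to D and 119, 114, 126 and 119 in KO_CSPG replicates A to D. WT_CSPG replicate D was below KO_CSPG replicate C, and 3 of 4 KO_CSPG libraries were below all WT_CSPG libraries. The SD was 22.3 in WT_CSPG and 4.93 in KO_CSPG around means of 151 and 119 (n = 4 each), at -0.33 on the log2 scale (SE 0.10). *Jund* lies on the plus strand of chromosome 8 from 70698949 to 70700616. It had 455, 425, 489 and 509 normalized counts in WT_CSPG replicates A to D and 414, 407, 442 and 421 in KO_CSPG replicates A to D. The log2 fold change was -0.15 (SE 0.06), and 3 of 4 KO_CSPG libraries lay below all WT_CSPG libraries.

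**Figure D1:**
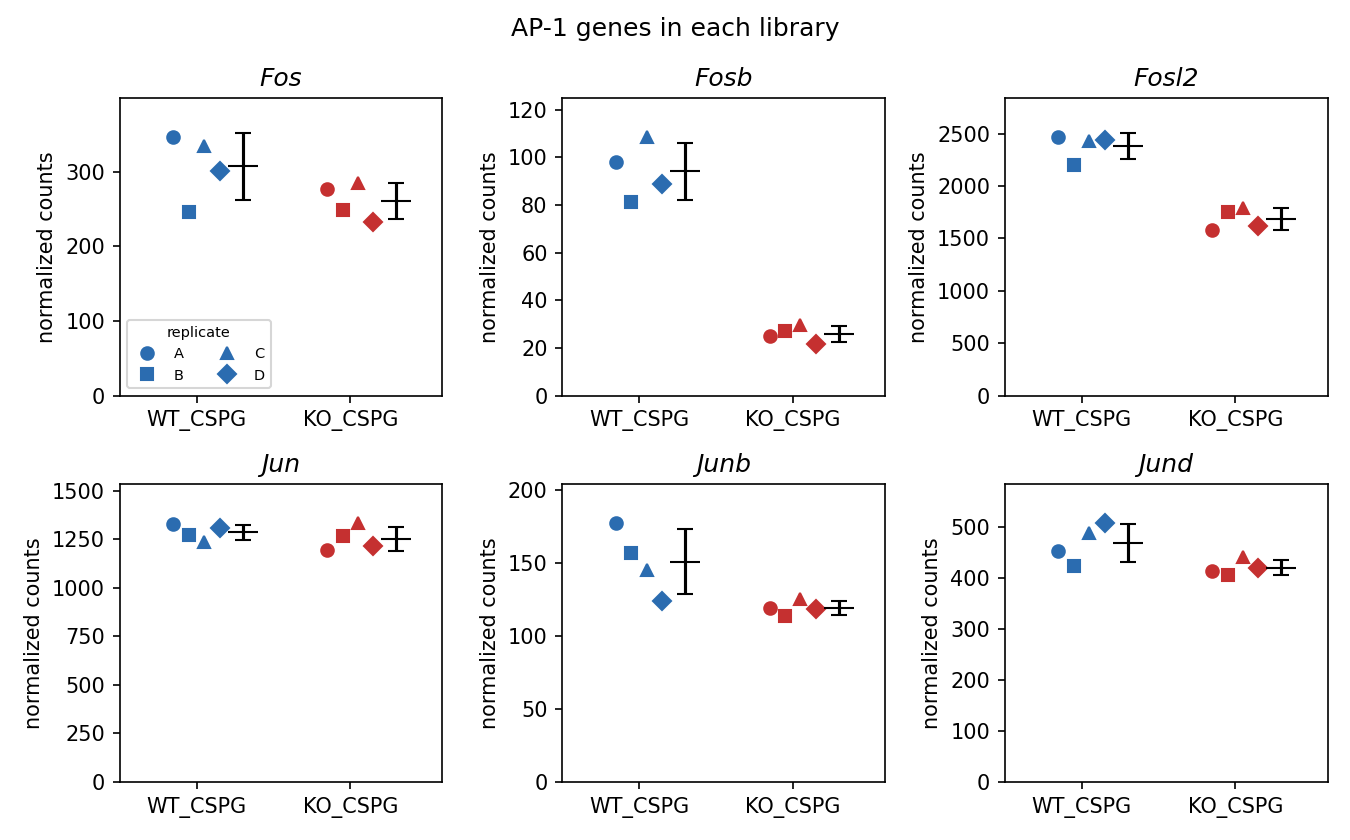
Normalized counts (vertical axes, from 0) of the 6 AP-1 genes in the 4 WT_CSPG (blue) and 4 KO_CSPG (red) libraries, with a symbol for each replicate letter and the mean ± SD in black. The *Fosb* libraries lie between 81.2 and 109 in WT_CSPG and between 21.8 and 29.6 in KO_CSPG, the *Fosl2* libraries are also apart, and the other 4 genes overlap.

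The annotation limits what some of these counts can hold. On the opposite strand, *Junos* overlaps *Jun* over 689 bases, *Gm11175* overlaps *Jund* over 919 bases, and *Prdx2*, with a mean of 3582 normalized counts, overlaps the end of *Junb* over 351 bases. Whether the counting used strand is not given in the sources used here, so reads in these overlaps cannot be assigned with certainty. No other annotated gene overlaps *Fos*, *Fosb* or *Fosl2*.

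Across all genes, 346 of 12012 (2.88%) were called at an adjusted p under 0.05 with limma, 215 (1.79%) lower and 131 (1.09%) higher in KO_CSPG. Beside this background stand 2 of the 6 AP-1 genes, *Fosb* and *Fosl2*, both on the lower side, which is no test of them. In 621 genes (5.17%) every KO_CSPG library was below every WT_CSPG library, as in these same 2 AP-1 genes, and in 487 (4.05%) every KO_CSPG library was above, as in 0 of the 6, which makes 1108 genes (9.22%) without overlap. All 6 log2 fold changes were negative, with a median of -0.28 against 0.00 (0.000156) over all genes, where 5994 were negative. Because the genes were proposed with this comparison known, nothing is read from these counts.

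**Figure D2:**
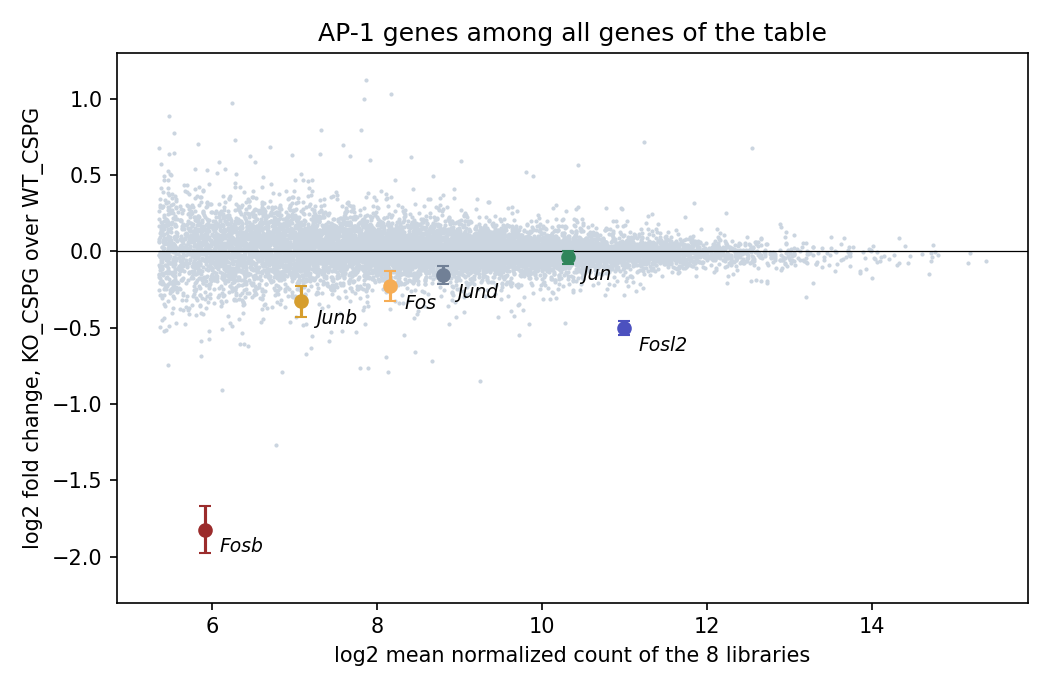
Log2 fold change of KO_CSPG over WT_CSPG (vertical axis) against the log2 mean normalized count of the 8 libraries (horizontal axis) for the genes of the table (grey) and the 6 AP-1 genes (coloured, with standard errors), leaving out 3 genes beyond the vertical range. *Fosb* lies at -1.82 near the low end of expression, *Fosl2* at -0.50 with a mean of 2035 normalized counts, and *Jun* at -0.04 within the cloud of genes.

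Levels were compared between genes as normalized counts per kilobase of the gene length in the table, which is the length of all annotated exons joined. In WT_CSPG the order was *Jun* with 403 ± 12.5 per kilobase (SD, n = 4), *Jund* with 281 ± 22.3, *Fosl2* with 246 ± 12.9, *Fos* with 131 ± 19.2, *Junb* with 65.7 ± 9.68 and *Fosb* with 15.1 ± 1.90. The libraries of *Jund* (from 255 to 305) and of *Fosl2* (from 227 to 255) touched in their ranges, and no other neighbours in this order overlapped. The same order held in KO_CSPG, at 393 ± 19.2 for *Jun*, 252 ± 9.05 for *Jund*, 174 ± 10.4 for *Fosl2*, 111 ± 10.3 for *Fos*, 51.9 ± 2.14 for *Junb* and 4.15 ± 0.528 for *Fosb* (SD, n = 4), where no neighbours overlapped. The place of *Jund* and *Fosl2* depends on the length used: with the longest annotated transcript, *Fosl2* had 365 ± 19.1 per kilobase in WT_CSPG and 258 ± 15.4 in KO_CSPG, and *Jund* kept 281 and 252, with overlapping libraries in KO_CSPG. *Jun* was higher than 88.6% of the genes of the table in WT_CSPG, and *Fosb* was higher than 6.38% in WT_CSPG and 0.125% in KO_CSPG. The table holds only genes with a mean over the 8 libraries of at least 40.7. The *Fosb* mean of 25.9 normalized counts in KO_CSPG lies below this, so its low place there follows in part from that limit.

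*Fosl2* made up most of the summed level of the 3 Fos genes in every library, and *Fosb* the least. The share of *Fosl2* in the summed per-kilobase level of *Fos*, *Fosb* and *Fosl2* was 63.0% ± 2.37 in WT_CSPG and 60.2% ± 2.33 in KO_CSPG (SD, n = 4), and the groups overlapped. *Fosb* contributed 3.76%, 3.77%, 4.24% and 3.60% in WT_CSPG replicates A to D and 1.42%, 1.49%, 1.53% and 1.29% in KO_CSPG replicates A to D. The share of *Fos* was 33.2% ± 2.25 in WT_CSPG and 38.4% ± 2.31 in KO_CSPG, with every KO_CSPG library higher, although the level of *Fos* itself was not higher in KO_CSPG. In the Jun family, *Jun* held 53.8% ± 1.32 in WT_CSPG and 56.4% ± 0.923 in KO_CSPG, with every KO_CSPG library higher. The other shares overlapped: *Jund* held 37.5% ± 2.34 and 36.2% ± 0.723, and *Junb* held 8.76% ± 1.33 and 7.44% ± 0.213 (SD, n = 4).

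Jun genes outweighed Fos genes per kilobase in all 8 libraries, and more so in KO_CSPG. The Fos family sum holds *Fos*, *Fosb* and *Fosl2* and leaves out *Fosl1*, which was higher than *Fosb* per kilobase. The Fos family sum per Jun family sum was 0.546, 0.478, 0.552 and 0.513 in WT_CSPG replicates A to D. In KO_CSPG replicates A to D it was 0.422, 0.422, 0.422 and 0.394. The groups did not overlap, at means of 0.522 ± 0.0340 and 0.415 ± 0.0137 (SD, n = 4). This came with a Fos family sum of 392 ± 33.1 per kilobase in WT_CSPG and 289 ± 16.9 in KO_CSPG, and Jun family sums of 750.3 ± 22.3 and 697 ± 27.8, of which only the Fos family sums did not overlap. Without division by length the ratio was 1.46 in WT_CSPG and 1.10 in KO_CSPG, and with the longest transcript it was 0.697 and 0.546, so the side of 1 on which it falls is set by the length and its lower value in KO_CSPG is not.

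Ratios between single genes within a library take out differences that the members share. *Fosb* per *Fos* was 0.107, 0.124, 0.122 and 0.111 in WT_CSPG and 0.0342, 0.0409, 0.0392 and 0.0352 in KO_CSPG, in the order of the replicates. *Fosl2* per *Fosb* was 16.5 ± 1.52 in WT_CSPG and 42.3 ± 3.96 in KO_CSPG (SD, n = 4), without overlap, so the Fos genes that were lower in KO_CSPG were lower by unequal amounts. *Fosl2* per *Jun*, the pair of the highest Fos and Jun genes by count, was 0.611 ± 0.0311 and 0.443 ± 0.00894 (SD, n = 4), again without overlap. *Junb* per *Jun* (0.163 ± 0.0228 and 0.132 ± 0.00585) and *Jund* per *Jun* (0.698 ± 0.0592 and 0.643 ± 0.0232; SD, n = 4) overlapped between the groups.

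**Figure D3:**
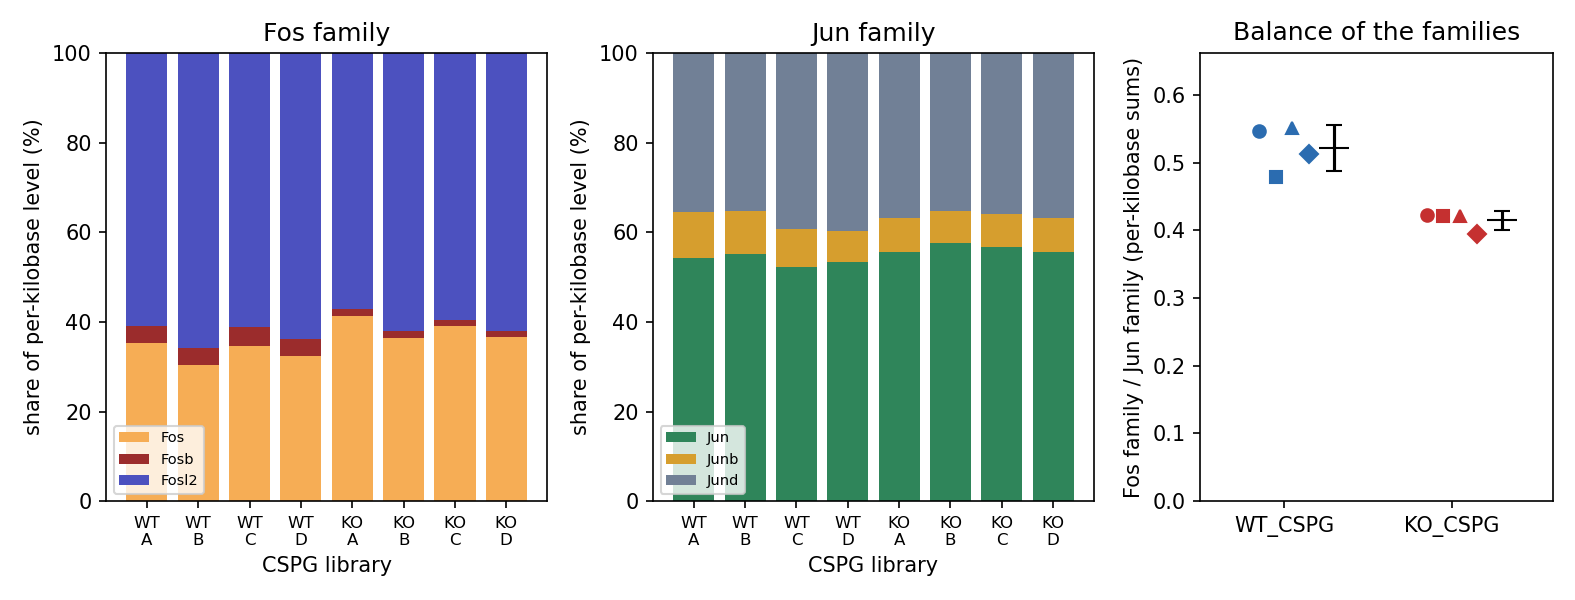
Share of each gene in the summed per-kilobase level of its family in each library (left and middle, percent, bars from 0), and the ratio of the Fos family sum to the Jun family sum (right, symbols as replicate letters A circle, B square, C triangle, D diamond, mean ± SD in black). *Fosb* shrinks from between 3.60% and 4.24% to between 1.29% and 1.53% of its family, and the ratio of the families lies between 0.478 and 0.552 in WT_CSPG and between 0.394 and 0.422 in KO_CSPG. *Fosl1* is left out of the Fos family here.

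No library was highest or lowest for all 6 genes in WT_CSPG. Among the WT_CSPG libraries, replicate A was highest for *Fos*, *Fosl2*, *Jun* and *Junb*, replicate C for *Fosb* and replicate D for *Jund*. Replicate B was lowest for *Fos*, *Fosb*, *Fosl2* and *Jund*, replicate C for *Jun* and replicate D for *Junb*. Among the KO_CSPG libraries, replicate C was highest for all 6 genes, whereas the lowest library was A for *Fosl2* and *Jun*, B for *Junb* and *Jund*, and D for *Fos* and *Fosb*.

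*Fosl1*, which encodes FRA-1 and completes the Fos family, lay between *Junb* and *Fosb* at 37.7 ± 3.38 per kilobase in WT_CSPG and 29.7 ± 5.41 in KO_CSPG (SD, n = 4). It had 64.3 ± 5.77 normalized counts in WT_CSPG and 50.7 ± 9.24 in KO_CSPG (SD, n = 4), at a log2 fold change of -0.35 (SE 0.15; limma adjusted p = 0.231), and its libraries overlapped. *Ccdc85b* overlaps it on the opposite strand over 2767 bases.

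Other proteins of the bZIP class can replace FOS or JUN in dimers or compete for their sites. Of 30 listed partners and competitors 23 were analysed. At an adjusted p under 0.05 in limma, 2 (8.70%, against 2.88% of all genes) were lower and 0 higher in KO_CSPG. The median log2 fold change was -0.07, and 0 of the list were called without the variance trend. *Atf4*, the effector of the integrated stress response, fell from 1917 ± 175 to 1568 ± 60.9 normalized counts (SD, n = 4; log2 fold change -0.29, SE 0.05; limma adjusted p = 0.00922). *Bach2*, a repressor that binds AP-1-like sites with MAF proteins, fell from 1092 ± 28.5 to 937.8 ± 53.2 (log2 fold change -0.22, SE 0.04; limma adjusted p = 0.00417). *Jdp2*, a repressor that dimerises with JUN, had the lowest log2 fold change of the list at -0.36 (SE 0.11; limma adjusted p = 0.0787), and *Nfe2l3* the highest at 0.11 (SE 0.17).

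The kinases that phosphorylate FOS and JUN, and the phosphatases that switch these kinases off, showed 0 calls among 26 analysed of 27 listed, with a median log2 fold change of 0.02. At an unadjusted p under 0.05 in limma there were 6 of these 26, beside 1943 of all 12012 genes. *Map3k1*, which feeds the JNK pathway, was the highest at 0.20 (SE 0.07), and *Map2k7*, which activates JNK, the lowest at -0.16 (SE 0.06). *Dusp1*, itself an early-response gene, had 232 ± 23.0 and 222 ± 19.0 normalized counts (SD, n = 4) in WT_CSPG and KO_CSPG.

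Of the transcription factors and coactivators that act at the *Fos* promoter, 16 of 16 listed were analysed, and 1 was higher and 1 lower (12.5%), with a median log2 fold change of -0.07. *Mef2c*, an activity-dependent factor of neurons, rose from 1821 ± 132 to 2208 ± 152 normalized counts (SD, n = 4; log2 fold change 0.28, SE 0.06; limma adjusted p = 0.0187). *Mkl2*, a coactivator of SRF that responds to actin, fell with a log2 fold change of -0.20 (SE 0.06; limma adjusted p = 0.0433). Neither was called by limma without KO_CSPG replicate A, without KO_CSPG replicate C or without the variance trend, and 1 of the list was called with upper-quartile scaling, with the replicate block, or without KO_CSPG replicate B or D or WT_CSPG replicate A or B. *Srf* itself had 569 ± 16.3 and 547 ± 13.4 normalized counts and *Creb1* had 1331 ± 63.1 and 1376 ± 89.6 (SD, n = 4), neither called. Among genes for the degradation of FOS and JUN proteins or of early-response mRNAs, 0 of 9 listed and analysed were called. An unadjusted p under 0.05 in limma was found for 1 of them, beside 1943 of all 12012 genes. *Zfp36*, whose protein destabilises early-response mRNAs, was the lowest at -0.19 (SE 0.14), and *Det1*, an adaptor of a ubiquitin ligase for JUN, the highest at 0.17 (SE 0.13).

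Early-response genes outside AP-1 had 4 lower (14.3%) and 0 higher among 28 analysed of 34 listed, with 23 negative log2 fold changes and a median of -0.16. *Nr4a2*, an orphan nuclear receptor induced by activity, fell from 1068 ± 95.6 to 767 ± 60.6 normalized counts (SD, n = 4; log2 fold change -0.48, SE 0.07; limma adjusted p = 0.00138). *Nr4a3*, *Errfi1* and *Homer1* fell by 0.19, 0.26 and 0.16 on the log2 scale, with adjusted p = 0.000513, 0.0304 and 0.0182 from limma. The calls of the list numbered 2 without KO_CSPG replicate A or WT_CSPG replicate C, 7 without WT_CSPG replicate D and 1 without the variance trend. *Npas4*, a neuronal activity factor, had the lowest log2 fold change at -0.53 (SE 0.16; limma adjusted p = 0.121), and *Btg2*, an antiproliferative early gene, the highest at 0.18 (SE 0.07). *Egr1*, induced with *Fos* by the same pathways, had 148 ± 21.4 and 127 ± 11.1 normalized counts (SD, n = 4) and was not called.

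Genes described as AP-1 targets in various tissues had 2 lower (7.14%) and 0 higher among 28 analysed of 38 listed, with a median log2 fold change of -0.09. *Nptx2*, a secreted pentraxin that clusters AMPA receptors, fell from 176 ± 9.58 to 120.4 ± 15.4 normalized counts (SD, n = 4; log2 fold change -0.55, SE 0.10; limma adjusted p = 0.00138). *Ezr*, a linker of membrane and actin, fell by 0.19 on the log2 scale (SE 0.04; limma adjusted p = 0.00849). *Camk2a* was the highest of the list at 0.12 (SE 0.04), and 21 of 28 were negative. The calls of the list numbered 6 with the replicate block, 5 without WT_CSPG replicate D and 1 without the variance trend. Heat shock genes had 0 calls among 7 analysed of 10 listed, with a median log2 fold change of -0.01 (-0.00768). At an unadjusted p under 0.05 in limma there were 3 of these 7, beside 1943 of all 12012 genes. *Bag3*, a co-chaperone, was the lowest at -0.23 (SE 0.08) and *Hspe1*, a mitochondrial chaperonin, the highest at 0.10 (SE 0.08).

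**Figure D4:**
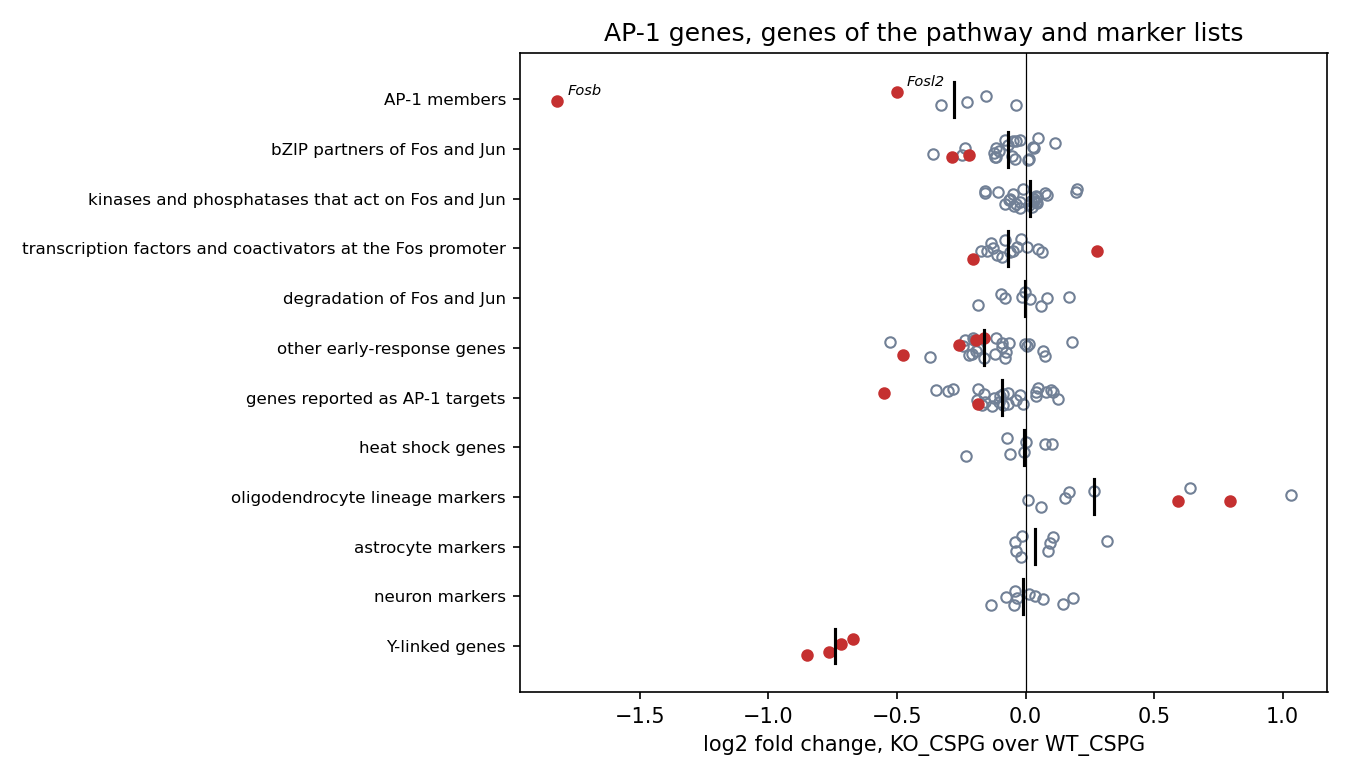
Log2 fold changes of KO_CSPG over WT_CSPG (horizontal axis) for the AP-1 genes and the genes of each list, filled red where the adjusted p was under 0.05 in limma, with the list median as a black bar. *Fosb* lies at -1.82, the early-response median at -0.16, the oligodendrocyte lineage median at 0.27 and the Y-linked genes between -0.85 and -0.67.

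Several other measures moved with genotype beside the AP-1 genes. The summed level of 4 Y-linked genes lay between 1557 and 1935 normalized counts in WT_CSPG and between 878 and 1092 in KO_CSPG, without overlap, and each of the 4 was lower in KO_CSPG with a log2 fold change from -0.85 to -0.67. That of *Fosb* was -1.82 and that of *Fosl2* -0.50. The fit was also run with the summed Y-linked level as a covariate, of whose variance genotype explained 91.2%. There the log2 fold changes were -1.68 (SE 0.52) for *Fosb*, -0.47 (SE 0.15) for *Fosl2* and -0.05 (SE 0.35) for *Junb*. They were 0.04 (SE 0.20) for *Jund* and 0.43 (SE 0.27) for *Fos*. With this covariate 2 genes of the whole table were called by limma (0.0167%). In these libraries genotype and embryo sex cannot be told apart. Of 9 oligodendrocyte lineage markers analysed, 0 had a negative log2 fold change, and the median was 0.27. Called higher in KO_CSPG by limma were 2 (22.2%, against 2.88% of all genes), *Olig1* and *Olig2*, with log2 fold changes 0.59 and 0.79. *Pdgfra* had the largest, 1.03 (SE 0.38; limma adjusted p = 0.253). The sums of these markers lay between 1317 and 1651 normalized counts in WT_CSPG and between 1979 and 2136 in KO_CSPG, without overlap. Their part in the AP-1 result was not tested. Sums of the microglia, fibroblast and meningeal, endothelial and mural, choroid plexus, proliferation, astrocyte and neuron markers overlapped between the groups, with 0 genes called by limma. From 0 to 2 genes in each of these lists had an unadjusted p under 0.05 in limma, beside 1943 of all 12012 genes.

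The genes whose centred log2 profile over the 8 libraries lay nearest to that of *Fosl2* were *Nr4a2*, *Nptx2* and *Tnfaip3*, at root mean square differences of 0.0559, 0.0768 and 0.0790. For *Junb* the nearest were *Gm21967* (0.0625), *Grp* (0.0766) and *Bves* (0.0767). *Fosb* had no near neighbour: the closest were *Trim66* at 0.483, *Ddx3y*, which is Y-linked, at 0.513 and *Lipg* at 0.540. The profile includes the difference between the groups, so like fold changes follow from the choice of these genes.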

How the data were processed

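RNA from WT_CSPG and KO_CSPG cultures was extracted with RNeasy kits, made into NEBNext Ultra libraries with poly-A enrichment and sequenced as single reads. The deposited values of each library are a normalized signal: the authors divided the reads on each gene by a DESeq2 size factor on the Galaxy platform. The authors' processing notes name DESeq2 and mm10, and the aligner, the counting program and its strand setting are not given in the sources used here. Every value was a whole multiple of 1 step per library (within 0.01 of a read), which gave the reads. Genes with a mean value under 40.7 are not analysed here, and 0 per-sample columns were left unused. The deposited gene length and coordinates are of other units, in bases; starts are given counted from 1. GENCODE M21 on GRCm38 gave the same coordinates for 9960 of 11991 matched genes and for all 6 AP-1 genes. The table's own columns of fold changes, Wald scores and p-values were not used.

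Differences were fitted to log2(value + 1) by limma 3.58.1 in R 4.3.3 (trend and robust), with Benjamini-Hochberg adjustment over 12012 genes. Fold changes on this scale understate the change of low genes. P-values set the difference between the groups against the spread between these cultures, with a variance that limma draws toward a trend over all genes. The fit was tested on simulated data of the 12012 genes: 86 of 100 genes with a log2 change of 0.5 and 98 of 100 with 1 were called, and 8 of 11812 unchanged genes.

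The members and lists were chosen with earlier results of these data known, and list names were matched by symbol and Ensembl ID (*Creb5* is 9430076C15Rik in the table, and repeated names of 1 gene count once). Named are the members, *Fibcd1*, *Fosl1*, the called genes and the extremes of each pathway list, and the 3 nearest profiles of members with an absolute log2 fold change of at least 0.25. *Dusp1*, *Srf*, *Creb1*, *Egr1*, *Gfap* and the overlapping genes were named after their values were seen. Protein sequences were not used here. The count models planned as alternatives were not run here, and the reads obtained were used for depth and counting error only.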

Additional observations from a re-analysis of the deposited data

Results flagged for a closer look

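In 60 groups of 4 libraries (the members, *Fosl1*, *Fibcd1* and the measures of balance), 3 held a library far from the other 3, and chance flags about 1 in 20 groups, which is 3.0 here. *Fosl2* in WT_CSPG replicate B had 2201 normalized counts against 2430 to 2470.1 in the others. *Fibcd1* in WT_CSPG replicate D had 182 normalized counts against 54.3 to 70.4. The Fos family sum per Jun family sum in KO_CSPG replicate D was 0.394 against 0.422 in each of the others. Without WT_CSPG replicate B the log2 fold change of *Fosl2* was -0.54, without KO_CSPG replicate D the mean ratio of the families in KO_CSPG was 0.422, and *Fibcd1* was at -4.09 without WT_CSPG replicate D.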

How the results depend on the processing

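All 6 AP-1 log2 fold changes stayed negative under each alternative run except the Y-linked covariate. There *Fos* (0.43, SE 0.27) and *Jund* (0.0412, SE 0.20) turned positive. With that covariate 0 AP-1 genes, 1 higher gene, 1 lower gene and 0 genes of the pathway lists were called, and *Fibcd1* had an adjusted p of 0.810 from limma. A mean value of at least 100 left 1 AP-1 gene called, since *Fosb* is below that mean and was not tested. *Fosb* was -1.53 with a pseudocount of 10. Without the trend of the prior variance 28 genes were higher, 52 lower and 2 of the pathway lists called, and the cause was not tested. Upper-quartile scaling moved the split of calls from 131 higher and 215 lower to 182 and 178, shifted the median of all genes by 0.01 (0.0124) on the log2 scale. Whether same-lettered libraries are pairs is not given. Same-lettered deviations had r across genes of -0.07, 0.10, 0.27 and -0.01, and 2 of 4 letters correlated best with their own. Such values cannot decide whether the libraries are paired. With the replicate block 16 in place of 10 genes of the pathway lists were called and 2 AP-1 genes. Leaving out 1 library gave from 62 higher, 124 lower and 6 pathway genes (without KO_CSPG replicate A) to 286 higher, 290 lower and 17 pathway genes (without WT_CSPG replicate D), and 2 or 3 AP-1 genes, the third being *Fos* without WT_CSPG replicate B and *Junb* without WT_CSPG replicate D, which is no test of genes proposed from this comparison. The Fos family per Jun family was 1.46 and 1.10 (WT_CSPG, KO_CSPG) without division by length and 0.697 and 0.546 with the longest transcript, and from 0.512 to 0.537 and from 0.413 to 0.422 without 1 library. Fits without the robust prior were chosen after seeing the data and by construction gave the same log2 fold changes. The count models planned as alternatives were not run.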
